A study of Mus musculus with 12 samples.

Results

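Gene expression was compared between salivary tumors that kept wild-type p53 and salivary tumors that lacked it. The values come from 8 of the 12 tumors of the study, 4 from MMTV-ras/p53+/+ mice (WT1 to WT4) and 4 from MMTV-ras/p53-/- mice (KO1 to KO4), chosen by the genotype in their labels. Of the 22690 probe sets on the array, 22626 were compared, all but the controls. Every animal, in both genotypes, carried the same ras transgene under the mouse mammary tumor virus promoter, which is active in mammary and salivary epithelium. No tissue-specific driver is given for the loss of p53, so the stroma and immune cells of the KO mice lacked it as well as the epithelium. The mice were on a mixed Balb/c x C57BL/6 background, and the ages of the animals behind these arrays are not given in the sources used here. The study reports that salivary tumors arose much earlier in p53-/- than in p53+/+ males. Age at sampling may thus differ between the genotypes, and its part in the differences was not tested. Tumors arose without treatment, and by the study's methods small adenocarcinomas without much necrosis were picked, and their frozen sections were checked under the microscope to be largely tumor. Total RNA of each tumor was hybridized to 1 Affymetrix mouse array. The sources do not say that each tumor came from a separate mouse, so the p-values refer to the spread among tumors, not among animals.

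The values are log2 expression levels, and a difference of 1 on this scale is a doubling. A WT minus KO difference above 0 means a higher level with p53. It was tested for every probe set with limma, which fits the mean of each genotype and shares information on the spread between probe sets. Adjustment for 22626 tests followed Benjamini and Hochberg, and a probe set with an adjusted p under 0.05 is called. The 4 remaining tumors, from MMTV-ras/p53R172H/R172H mice (MT1 to MT4), entered the fit for the estimate of the spread only. Arrays give no read depth, and their number, 4 per genotype, limits the precision.

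p53 is a transcription factor that cell stress and active oncogenes such as ras turn on. It raises the transcription of genes that stop the cell cycle, repair DNA or start cell death, and many other genes follow indirectly, for example through the cell cycle inhibitor Cdkn1a. The salivary glands hold acinar and demilune cells, which secrete saliva proteins, and ducts, which in rodents also store kallikreins and growth factors in granules.

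Trp53 itself separated the genotypes. Its 2 probe sets are named only by the study's own tables, and whether their probes lie outside the disrupted part of the null allele is not known from the files. The first read 8.45, 8.02, 8.33 and 8.53 in WT1 to WT4 and 6.37, 6.70, 6.89 and 6.72 in KO1 to KO4. The second read 7.89, 7.38, 8.01 and 8.01 in WT1 to WT4 and 5.85, 6.33, 6.24 and 6.36 in KO1 to KO4. WT and KO values did not overlap for either, and the differences were 1.66 (SE 0.23, limma adjusted p = 0.00798) and 1.63 (SE 0.24, limma adjusted p = 0.0101). Both calls held with any 1 of the 12 tumors left out.

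The tumors carried the markers of glandular epithelium. Luminal keratin Krt8 lay between 10.76 and 12.78 in WT and between 12.11 and 12.59 in KO tumors, Krt18 between 10.68 and 13.01 and between 12.58 and 12.89, and the surface protein Epcam between 11.79 and 12.51 and between 12.46 and 12.79. The water channel Aqp5, a marker of acini and proximal ducts, lay between 11.22 and 12.34 in WT and 10.96 and 13.02 in KO tumors. The basal markers Krt14 and Trp63 were near the low end of the scale, between 5.67 and 6.25 and between 5.22 and 5.85 over the 8 tumors. Other markers did not follow that split. The basal keratin Krt5 lay between 6.9 and 7.8 in WT and between 6.7 and 6.8 in KO tumors. The myoepithelial marker Acta2 lay between 8.9 and 10.0 in WT and between 9.0 and 9.9 in KO tumors. The luminal keratin Krt19 was low, between 5.9 and 6.2 in WT and between 6.5 and 6.9 in KO tumors. None of these markers was called between the genotypes. RNA and hybridization controls also differed among tumors. The 18S ribosomal RNA control averaged 9.11, 8.90, 9.33 and 7.51 in WT1 to WT4 and 8.03, 7.39, 7.36 and 7.39 in KO1 to KO4. It was thus high in WT1, WT2 and WT3, while WT4 lay within the range of the KO tumors. The distance between the 3′ and 5′ actin probe sets, which grows when RNA is shortened, was 1.05 in KO4 and between 0.25 and 0.58 in the other 7 tumors. Of the MT tumors, MT1, MT2 and MT3 stood apart by their poly-A control RNAs, which averaged 10.38 to 10.56 there but 3.98 to 4.23 in MT4 and the 8 tumors compared.

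Loss of p53 went with differences at 1035 probe sets, 4.57% of those tested. Of these, 597 (2.64%) were higher and 438 (1.94%) lower in WT tumors. The median size was 0.96 for those lower in WT and 0.74 for those higher, and 38 of the former and 15 of the latter differed by at least 2. Values of the 2 genotypes were without overlap at 3273 probe sets (14.5%), among them 997 of the 1035 called. Counted by gene, with the brightest probe set of each of 12393 genes, 565 genes (4.56%) were called, 331 higher (2.67%) and 234 lower (1.89%). Among 4956 genes with more than 1 probe set, 102 had at least 2 called, and none of these had called probe sets of opposite sign. The study itself had selected 187 of the tested probe sets on these tumors, and 860 of the 1035 calls lie outside that selection. That selection compared all genotypes of the study at once, by another method (SAM) and at a stricter false discovery rate. For WT against KO alone, the study's counts depended on the method. On RMA values, the processing that its methods name, it counted many more genes by SAM at looser rates. By t-test it counted 10 at 5% and 366 at 10%. A call outside the selection thus need not be one the study had missed, and all calls come from the same tumors.

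The counts depended on single tumors and on the scaling. Without WT3 196 probe sets were called, without WT1 269, without KO3 401, without KO2 452 and without KO1 627. A fit to the 8 tumors alone called 374, 170 higher and 204 lower, and with dim probe sets left out 612 were called, 259 higher and 353 lower, so that in both the lower ones were more numerous. Centering each array on its median moved the split to 846 higher and 396 lower. With the 18S level of each tumor as a covariate 11 probe sets were called. All 1035 differences kept their sign in that fit, 976 had an unadjusted p under 0.05, and the median ratio of the new to the old difference was 0.898. These 1035 had been chosen by their p in the same tumors, which favors a kept sign and a low p. The counts therefore cannot show the part of the 18S level in the differences, which was not otherwise tested. The 11 were the 2 probe sets of Trp53 and those of Mdk, Smpdl3a, Polr2e, Dcpp1, Nlk, Msra, Trip6, Ldb3 and Col9a3.

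**Figure D1:**
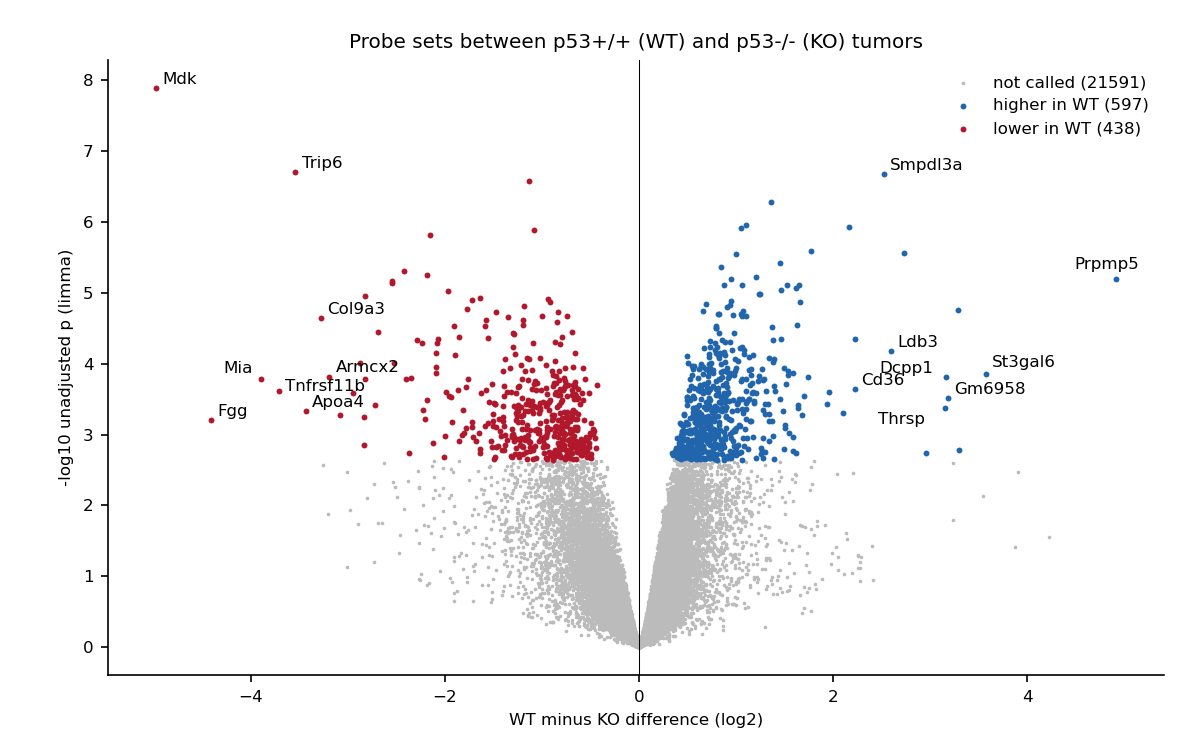
Each point is a probe set, with the WT minus KO difference (log2) on the x axis and the -log10 of the unadjusted limma p on the y axis. Blue points (597) were called higher and red points (438) lower in WT tumors; the red points reach -4.97 at Mdk and the blue points 4.91 at Prpmp5.

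The called gene with the highest WT minus KO difference was Prpmp5. Prpmp5, which encodes a proline-rich salivary protein, read 11.49, 12.04, 11.98 and 11.54 in WT1 to WT4 and 7.11, 7.75, 5.45 and 7.08 in KO1 to KO4. Its difference was 4.91 (SE 0.63, limma adjusted p = 0.00675), a 30.1-fold change, and every WT tumor was more than 3 units above every KO tumor. Dcpp1, a demilune protein, read 9.29, 8.27, 8.84 and 11.09 in WT1 to WT4 and 5.97, 5.90, 6.69 and 6.30 in KO1 to KO4. WT4 was the highest of the 8 and KO tumors spanned less than 1 unit, and the difference was 3.16 (SE 0.57, limma adjusted p = 0.0183). Of the sialyltransferase St3gal6, which adds sialic acid to glycans, the values were 10.33, 7.73, 9.04 and 9.04 in WT1 to WT4 and 5.75, 4.57, 4.35 and 7.20 in KO1 to KO4. The groups did not overlap, but WT2 was close to KO4, and the difference was 3.57 (SE 0.64, limma adjusted p = 0.0177).

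Of the 15 called genes with the highest differences, Thrsp, Smpdl3a, Cd36 and G0s2 are known from lipid handling. Thrsp, a nuclear protein tied to fatty acid synthesis, read 9.63, 6.47, 9.24 and 7.33 in WT1 to WT4 and 4.95, 4.88, 4.86 and 5.38 in KO1 to KO4. WT1 and WT3 were the highest tumors, and the difference was 3.15 (SE 0.64, limma adjusted p = 0.024). Smpdl3a, a secreted phosphodiesterase of the sphingomyelinase family, read 9.54, 9.55, 9.64 and 9.51 in WT1 to WT4 and 7.22, 6.38, 6.95 and 7.62 in KO1 to KO4. The WT tumors were nearly equal and lay above all KO tumors, with a difference of 2.52 (SE 0.23, limma adjusted p = 0.00148). The fatty acid transporter Cd36 read 6.76, 6.32, 7.90 and 5.32 in WT1 to WT4 and 4.43, 4.32, 4.26 and 4.40 in KO1 to KO4. KO tumors were uniformly low, while WT tumors ranged widely, and the difference was 2.22 (SE 0.42, limma adjusted p = 0.0198). G0s2, an inhibitor of triglyceride breakdown, differed by 1.95, Cebpa, a transcription factor of fat, liver and gland differentiation, by 1.64, and Hmox1, which degrades heme, by 1.94. The rest of the 15 were Ccng1 (1.77), Ntrk2 (2.10), a neurotrophin receptor, Ldb3 (2.60), a muscle-type LIM protein, Gpnmb (1.74), a glycoprotein of lysosomes, Chchd10 (1.68), a mitochondrial protein, and Gm6958 (3.18).

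Soat1, which esterifies cholesterol for storage, is not among them because the probe annotation does not name it. It was chosen after its values were seen. The study's table gives it 3 probe sets, and all were called, with differences of 2.16, 1.51 and 0.84. The first read 9.21, 9.01, 9.22 and 9.50 in WT1 to WT4 and 7.11, 6.44, 7.39 and 7.35 in KO1 to KO4, with no overlap between the genotypes. The second lost its call without WT1 or WT3, at adjusted p up to 0.0552.

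The called gene with the lowest WT minus KO difference was Mdk. Mdk encodes midkine, a heparin-binding growth factor of embryonic tissues. It read 6.14, 6.0, 6.69 and 6.24 in WT1 to WT4 and 11.32, 11.72, 11.45 and 10.46 in KO1 to KO4. The groups lay more than 3 units apart, and the difference, -4.97 (SE 0.35, limma adjusted p = 0.00029), was the largest in size of all probe sets tested. Tnfrsf11b, or osteoprotegerin, a decoy receptor that blocks bone resorption, read 3.49, 3.40, 4.79 and 4.67 in WT1 to WT4 and 8.13, 5.89, 7.87 and 9.33 in KO1 to KO4. It was lowest in KO2 among the KO tumors, and the difference was -3.71 (SE 0.71, limma adjusted p = 0.0199). Slit2, a secreted guidance cue that binds Robo receptors, read 5.30, 6.72, 7.09 and 7.17 in WT1 to WT4 and 9.09, 9.21, 10.62 and 8.86 in KO1 to KO4. WT1 was the lowest and KO3 the highest tumor, and the difference was -2.87 (SE 0.49, limma adjusted p = 0.0164).

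Trip6, a LIM-domain adaptor of focal adhesions, read 4.95, 5.08, 5.20 and 5.54 in WT1 to WT4 and 8.42, 9.45, 8.79 and 8.26 in KO1 to KO4. WT tumors lay within 1 unit of each other, and the difference was -3.54 (SE 0.32, limma adjusted p = 0.00148). Its relative Pdlim7 differed by -2.54. Fibronectin (Fn1), a matrix protein that integrins bind, read 5.26, 4.89, 6.47 and 7.22 in WT1 to WT4 and 9.73, 7.78, 7.98 and 9.70 in KO1 to KO4. WT4 came close to KO2, and the difference was -2.84 (SE 0.60, limma adjusted p = 0.0271). The brightest probe set of Fn1 is another and was not called. Among other matrix genes, the cartilage collagen chain Col9a3 differed by -3.27 and Hs3st1, which sulfates heparan sulfate, by -2.82. Mia, a secreted protein first known from melanoma and cartilage, differed by -3.89.

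Plasma proteins of liver and gut were also in this group. Fgg, the gamma chain of fibrinogen, read 4.43, 4.17, 5.44 and 4.63 in WT1 to WT4 and 10.68, 8.89, 8.88 and 7.84 in KO1 to KO4. The difference was -4.40 (SE 0.94, limma adjusted p = 0.0283), the second largest in size among these 15 genes. Apoa4, an apolipoprotein of chylomicrons, read 7.14, 6.82, 7.41 and 6.45 in WT1 to WT4 and 12.92, 9.36, 9.71 and 9.56 in KO1 to KO4. KO1 stood above the other 3 KO tumors, and the difference was -3.44 (SE 0.71, limma adjusted p = 0.0249). The rest were Armcx2 (-3.19), Ptpn13 (-2.84), a tyrosine phosphatase, Chrnb1 (-2.82), a subunit of the acetylcholine receptor of muscle, and Tubb2b (-2.72), a tubulin of neurons.

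**Figure D2:**
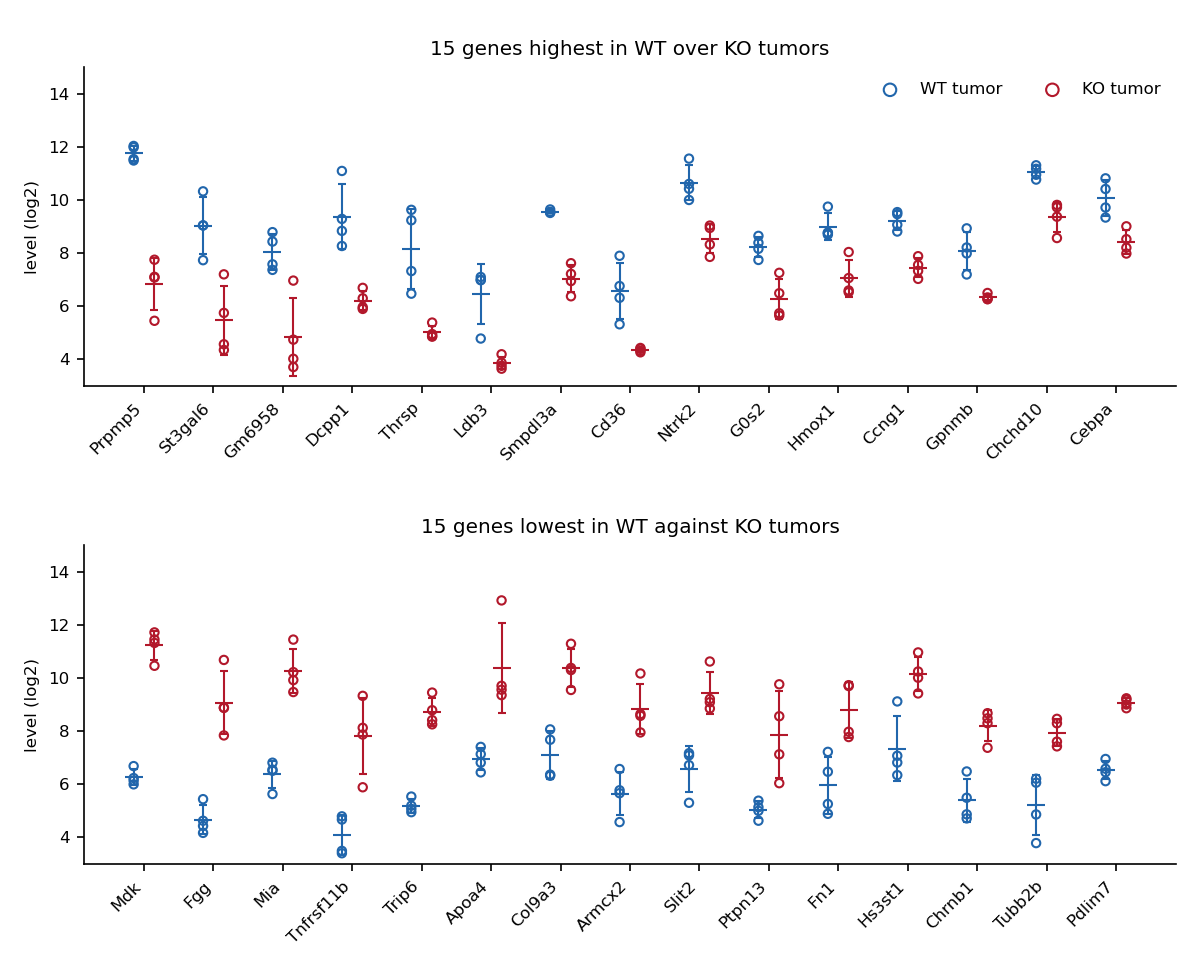
Levels (log2, y axis) of the 15 genes with the highest (upper panel) and the 15 with the lowest (lower panel) WT minus KO difference, with 1 open circle per tumor, blue for WT and red for KO, and bars for the mean and SD of 4 tumors. Mdk lies between 6.0 and 6.69 in WT and between 10.46 and 11.72 in KO tumors.

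The calls of these 30 genes were not equally firm. With any 1 of the 12 tumors left out, 13 stayed called: Prpmp5, Dcpp1, Ldb3, Smpdl3a, Ccng1, Gpnmb, Mdk, Trip6, Col9a3, Armcx2, Slit2, Chrnb1 and Pdlim7. The others lost the call in at least 1 omission, 14 of them without WT1, 14 without WT3, 9 without KO3, 8 without KO1, 5 without KO2, 3 without WT2, 2 without KO4 and 1 each without MT1 and MT3, at adjusted p values up to 0.101. None changed sign. By the same count for 106 called genes of the functional lists described next, 42 stayed called with any tumor left out. Calls were lost without WT3 for 61, WT1 for 52, KO3 for 39, KO1 for 38, KO2 for 37, KO4 for 27, MT1 for 25, MT3 for 20, WT4 for 19, WT2 for 16, MT2 for 13 and MT4 for 6, at adjusted p values up to 0.12.

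To see which functions these genes belong to, 56 lists of genes were described by how many members were called and by the median difference. Each member counts by its brightest probe set, so a member without a call can still be called at another probe set. Over all 12393 genes the median difference was 0.01. The lists cover 1500 genes and 120 of the 565 called genes, so 445 called genes are in no list. In a bulk tumor sample, fewer cells of a type and less RNA per cell cannot be told apart. Members that the study had itself selected on these tumors are counted beside the lists, since they are not independent evidence of a direction. The shares called over all genes, 2.67% higher and 1.89% lower, are the background of each count. List means without overlap between WT and KO tumors were not particular to a few lists. Those of the Wnt, Hippo, axon guidance, chromatin and T and NK cell lists also did not overlap, the last with no gene called.

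**Figure D3:**
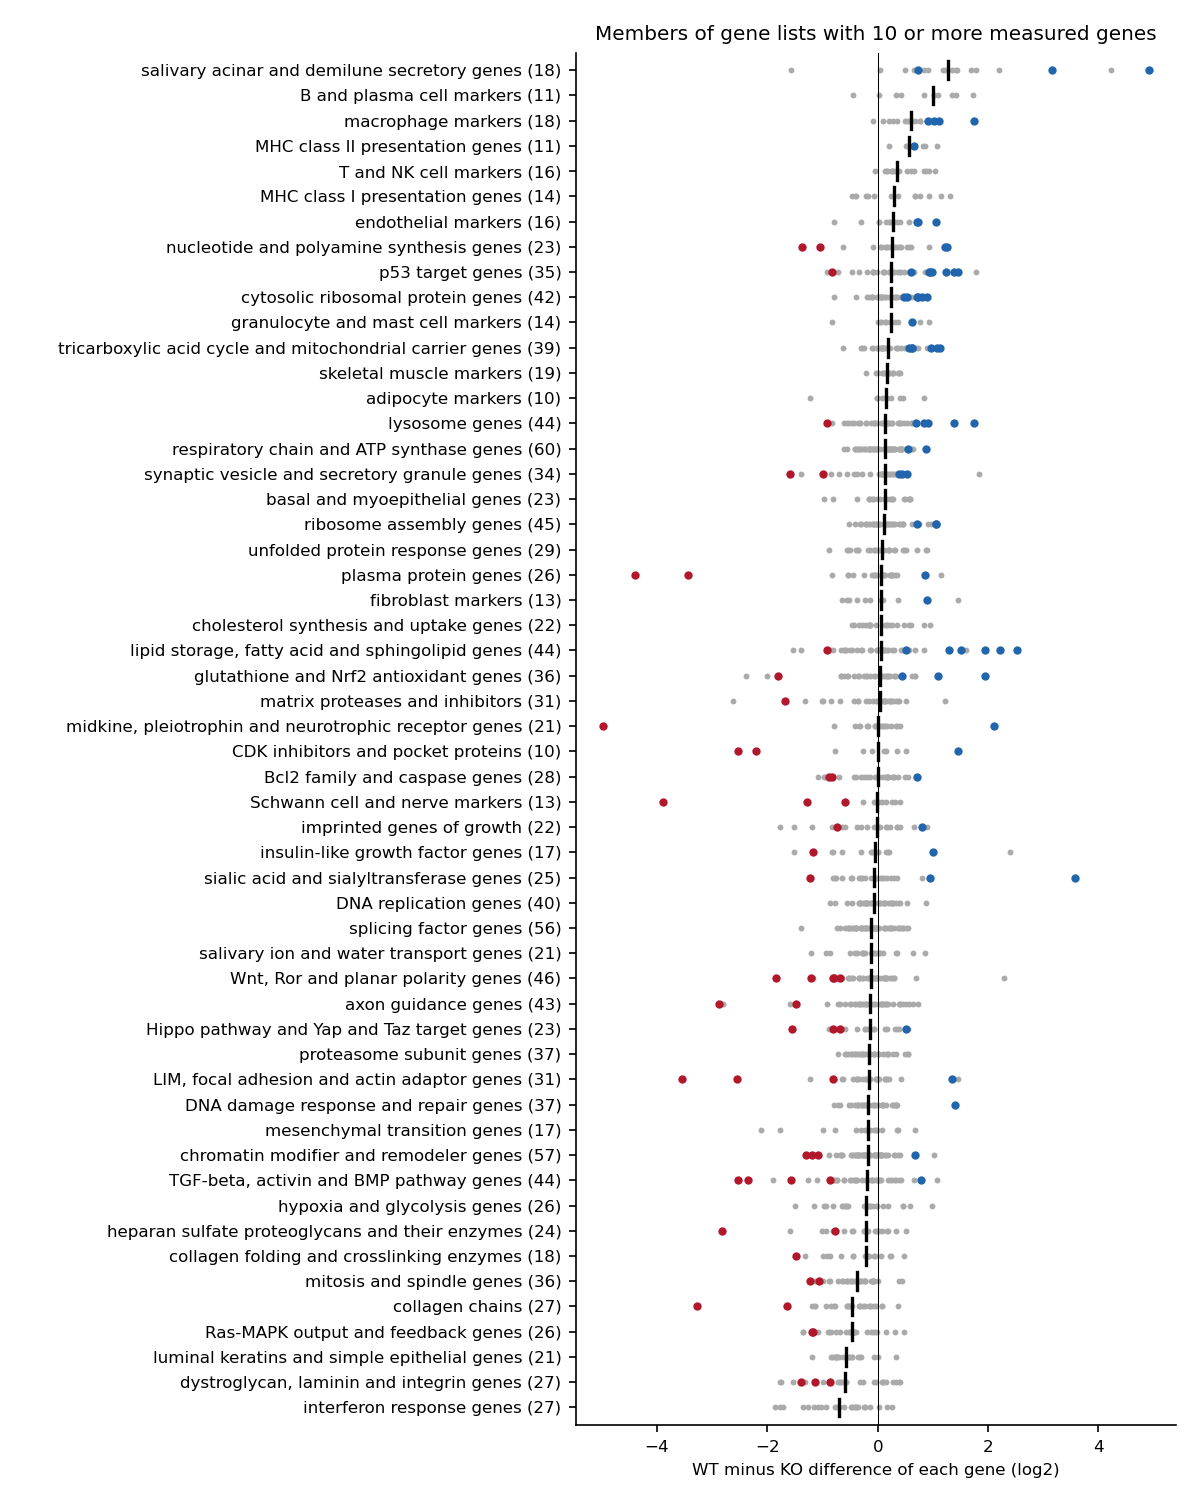
Each row is a gene list with 10 or more measured genes, each point a gene placed by its WT minus KO difference (log2, x axis), blue where called higher and red where called lower in WT tumors, and the bar marks the list's median. The acinar and demilune genes have the highest median, 1.28, and the interferon response genes the lowest, -0.70, with no called member. Without KO2 the interferon median is -0.31, and that of the luminal keratin and simple epithelial genes is lower, -0.63.

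Where secretory genes of acini and demilunes were called, they were higher in WT tumors. Of 18 measured, 17 had a positive difference, with a median of 1.28, and 3 (16.7%, against 2.67% over all genes) were called higher: Prpmp5, Dcpp1 and Itln1, all 3 selected by the study. The mean level of the list was 10.27, 9.83, 10.48 and 9.91 in WT1 to WT4 and 9.13, 8.26, 8.31 and 8.86 in KO1 to KO4, without overlap. Itln1, a lectin that binds microbial sugars, read 5.65, 5.77, 5.50 and 5.34 in WT1 to WT4 and 4.68, 4.93, 4.95 and 4.76 in KO1 to KO4, a difference of 0.74 (SE 0.12, limma adjusted p = 0.0127). Abundant saliva proteins that were not called varied from tumor to tumor. Bpifa2, a lipid-binding saliva protein, read 13.54, 13.78, 13.51 and 13.75 in WT1 to WT4 and 13.26, 11.28, 11.08 and 13.59 in KO1 to KO4, with KO1 and KO4 near the WT tumors. Dcpp3 was taken up after its values were seen, and read 13.78, 13.80, 13.52 and 10.59 in WT1 to WT4 and 9.50, 11.94, 12.88 and 11.66 in KO1 to KO4, so that WT4 fell among the KO tumors.

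Granular duct genes were high in 1 tumor. None of 9 measured was called, and the median difference of -0.54 became 0.29 without KO3, -0.99 without KO1 and -0.92 without KO2. The list averaged 9.10 in KO3, between 4.80 and 5.08 in the other KO tumors and between 5.12 and 5.36 in WT tumors. The kallikrein Klk1 read 5.37, 4.29, 4.30 and 4.90 in WT1 to WT4 and 7.93, 4.21, 11.60 and 4.19 in KO1 to KO4, so KO1 was also raised above the others. Epidermal growth factor (Egf), stored in the same granules, read 7.05, 6.35, 7.08 and 7.17 in WT1 to WT4 and 5.25, 5.81, 10.39 and 7.85 in KO1 to KO4.

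Luminal epithelial genes had a median difference of -0.58 over 21 genes, with no gene called, and of -0.36 without WT1. Their mean level was between 9.16 and 10.18 in WT and between 10.07 and 10.46 in KO tumors, and WT1 was the lowest. The adhesion protein Cdh1 (E-cadherin) read 10.17, 11.09, 10.61 and 11.09 in WT1 to WT4 and 11.56, 11.17, 11.69 and 11.63 in KO1 to KO4, and its difference of -0.77 (SE 0.23, limma adjusted p = 0.081) did not pass. By the brightest probe set of each gene, none of 23 basal and myoepithelial, 17 mesenchymal transition and 21 ion and water transport genes was called. At another probe set 1 mesenchymal transition gene, Fn1, and 1 ion and water transport gene were called lower.

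Genes for dystroglycan, laminins, integrins and collagens were lower in WT tumors where they were called. Among genes for dystroglycan, laminins and integrins, 3 of 27 (11.1%, against 1.89% over all genes) were called lower and none higher, with a median of -0.58. The mean level of this list was 7.06, 7.17, 7.34 and 7.33 in WT1 to WT4 and 7.68, 7.79, 7.87 and 7.69 in KO1 to KO4, so every WT tumor was below every KO tumor. Dag1 encodes dystroglycan, a laminin receptor, and it was the member that the study had selected. It read 9.17, 9.45, 9.58 and 9.35 in WT1 to WT4 and 10.16, 10.39, 10.22 and 10.23 in KO1 to KO4, a difference of -0.87 (SE 0.15, limma adjusted p = 0.0162). The integrin chains Itgav and Itga3 were called at -1.14 and -1.40. Dag1 stayed called with any 1 tumor left out. Itgav and Itga3 were each lost without 1 or more of WT1, WT3, KO1, KO2 and KO4 (adjusted p up to 0.0675).

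Collagen chains had a median of -0.47, which was -0.19 without WT2 and -0.25 without KO2, and 2 of 27 were called lower, Col9a3 and Col4a6 (-1.64), a basement membrane chain. The study had selected 2 members of the list, and without them 1 call remained. The fibrillar chains varied within each genotype, and the list mean ranged from 7.31 in WT2 to 8.58 in WT3 and from 8.24 to 8.77 in KO tumors. Plod2, which hydroxylates collagen for crosslinking, was the 1 enzyme of 18 called, at -1.47, and had been selected by the study. Of 31 matrix proteases and inhibitors only Adamts1, a secreted protease, was called, at -1.68. In heparan sulfate metabolism 2 of 24 genes were called lower, the sulfotransferases Hs3st1 and Hs2st1 (-0.78), and without the members selected by the study 1 of these remained. With any 1 tumor left out, Col9a3 stayed called. Each of Col4a6, Plod2, Adamts1, Hs3st1 and Hs2st1 lost its call without at least 1 of WT1, WT2, WT3, WT4, KO1, KO2, KO3, KO4, MT1 and MT3, at adjusted p up to 0.11.

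Adaptors of LIM and actin type held 3 of 31 genes called lower and 1 higher, all of them selected by the study. The lower ones were Trip6, Pdlim7 and Wasl (-0.81), an activator of actin branching. The higher one was Ldb3, whose brightest probe set read 6.86, 6.44, 7.03 and 7.10 in WT1 to WT4 and 5.42, 5.43, 5.55 and 5.61 in KO1 to KO4. Every WT tumor exceeded every KO tumor, and the difference was 1.35 (SE 0.14, limma adjusted p = 0.00237). The calls of Trip6, Pdlim7 and Ldb3 held in every omission of 1 tumor. The call of Wasl ended without WT1, WT3, WT4, KO1, KO2, KO3, KO4, MT1, MT2 or MT3 (adjusted p up to 0.12).

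Signaling genes were called in both directions. The Hippo pathway restrains the coactivators Yap and Taz, which bind DNA through TEAD factors. Of 23 genes, 3 (13%) were called lower and 1 higher (Lats2), against 1.89% and 2.67% over all genes, and 2 of the 4 had been selected by the study. Wwtr1 encodes Taz. It read 8.05, 9.20, 8.53 and 8.83 in WT1 to WT4 and 10.55, 9.83, 10.26 and 10.21 in KO1 to KO4, with no overlap and a difference of -1.56 (SE 0.24, limma adjusted p = 0.0126). Amotl2, which binds Yap at cell junctions and is also a target of it, read 7.83, 7.80, 7.91 and 7.76 in WT1 to WT4 and 8.51, 8.32, 8.60 and 8.65 in KO1 to KO4, a difference of -0.69 (SE 0.11, limma adjusted p = 0.0113). The kinase Lats2, which phosphorylates Yap and Taz, was called at 0.51 and the scaffold Wwc1 at -0.81. No omission of 1 tumor ended the calls of Wwtr1 and Amotl2. Lats2 and Wwc1 were each lost without 1 or more of WT1, WT2, WT3, WT4, KO1, KO2, KO3, KO4, MT1, MT2 and MT3 (adjusted p up to 0.109).

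The promoters of Wwtr1, Amotl2 and the focal adhesion gene Trip6 each hold the core of the TEAD site, GGAATG read on either strand. That core was found in 12 of 19 promoters of the Hippo list with a RefSeq entry and in 12.9% of all 9882 promoters. It was found in 3 of the 4 called, Wwtr1, Amotl2 and Lats2, of which Lats2 was called higher in WT and the others lower. Among the promoters of called genes its share was 14.5% for those higher and 12.9% for those lower in WT. The 250 bases before the start are printed 5′ to 3′ from RefSeq (GRCm38.p6), with the core in capitals. The printed genes were picked by name. Lats2 is not printed, and Trip6 is not a member of the Hippo list. The calls of the printed genes held in every omission, as did those of other genes that are not printed. A match is a description of the letters and not a binding site.
Wwtr1 (chr3:57575911-57576160, minus strand): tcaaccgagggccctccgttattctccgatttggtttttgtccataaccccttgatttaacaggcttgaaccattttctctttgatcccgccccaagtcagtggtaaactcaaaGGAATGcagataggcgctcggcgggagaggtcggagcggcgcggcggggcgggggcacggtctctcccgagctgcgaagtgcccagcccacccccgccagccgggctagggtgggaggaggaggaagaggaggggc
Amotl2 (chr9:102717554-102717803, plus strand): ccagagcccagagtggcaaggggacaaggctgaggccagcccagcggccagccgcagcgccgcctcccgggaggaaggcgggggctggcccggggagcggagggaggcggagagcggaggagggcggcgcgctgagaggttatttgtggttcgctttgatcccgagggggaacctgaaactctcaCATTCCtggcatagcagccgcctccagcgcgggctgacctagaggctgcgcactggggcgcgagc
Trip6 (chr5:137314242-137314491, minus strand): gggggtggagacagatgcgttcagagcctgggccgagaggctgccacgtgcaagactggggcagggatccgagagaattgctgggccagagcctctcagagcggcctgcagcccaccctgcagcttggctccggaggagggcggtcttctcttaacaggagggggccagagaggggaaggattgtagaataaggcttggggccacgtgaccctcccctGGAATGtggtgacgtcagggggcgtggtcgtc
Counted from the start, the match begins at base -136 in Wwtr1, at -65 in Amotl2, where it is on the opposite strand, and at -32 in Trip6.

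In the TGF-beta, activin and BMP pathway, 4 of 44 genes (9.09%, against 1.89%) were called lower and 1 higher (Bmpr1b). All 4 lower ones had been selected by the study. The receptor Acvr1 read 6.95, 7.75, 7.64 and 7.30 in WT1 to WT4 and 8.69, 9.48, 9.18 and 8.60 in KO1 to KO4, and its difference was -1.58 (SE 0.23, limma adjusted p = 0.00907). The ligand chain Inhbb, which forms activin B, read 5.77, 6.21, 7.68 and 7.02 in WT1 to WT4 and 8.56, 9.73, 8.75 and 9.02 in KO1 to KO4. WT3 was the highest WT tumor and still below the KO tumors, and the difference was -2.35 (SE 0.42, limma adjusted p = 0.0183). The activin receptor Acvr2a differed by -0.86 and Ltbp1, which stores latent TGF-beta in the matrix, by -2.52. Acvr1, Inhbb and Acvr2a stayed called with any 1 tumor left out. The call of Ltbp1 ended without WT3 (adjusted p up to 0.0516).

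Wnt and planar polarity genes included 5 of 46 (10.9%, against 1.89%) called lower and none higher, of which 3 had been selected by the study. Prickle1, a planar polarity protein, read 5.60, 4.86, 5.52 and 6.13 in WT1 to WT4 and 7.16, 7.01, 7.64 and 7.70 in KO1 to KO4, a difference of -1.85 (SE 0.29, limma adjusted p = 0.0122). Ror2, a receptor of Wnt5a, read 5.65, 5.71, 6.02 and 5.81 in WT1 to WT4 and 6.87, 6.40, 6.61 and 6.47 in KO1 to KO4, a difference of -0.79 (SE 0.12, limma adjusted p = 0.0122). Nlk, a kinase that phosphorylates TCF factors, was called at -0.81 and the co-receptor Lrp6 at -1.21, and the fifth was the receptor Fzd6. With any 1 tumor left out, Prickle1, Ror2 and Nlk stayed called. Lrp6 was not called without WT1, at adjusted p up to 0.0522.

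Although all tumors carried the ras transgene, output and feedback genes of the Ras-MAPK pathway had a median of -0.47 over 26 genes, which was -0.72 without WT2. 2 were called lower, Spred2 (-1.18), a feedback inhibitor, and Etv4 (-1.20), a transcription factor induced by ERK. 1 of them had been selected by the study. The list mean was lowest in WT1, at 7.98, and between 8.39 and 8.76 in the other WT tumors, against 8.78 to 9.07 in KO tumors. Spred2 and Etv4 were each lost without 1 or more of WT1, WT3, WT4, KO1, KO2, KO3, KO4, MT1 and MT2 (adjusted p up to 0.113).

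Igf1 and its receptor were called in opposite directions. Igf1, the ligand, was called higher in WT at each of its 3 probe sets, with differences of 1.10, 0.99 and 0.67. Its receptor Igf1r was called lower and read 6.90, 7.78, 7.27 and 7.02 in WT1 to WT4 and 8.68, 8.69, 8.25 and 8.06 in KO1 to KO4. The difference was -1.18 (SE 0.21, limma adjusted p = 0.0172). The other 15 measured genes of that list were not called, and Igf1 was its 1 member selected by the study. Ntrk2 was called higher and Mdk lower among 21 genes for midkine, pleiotrophin and neurotrophic receptors, and without the 2 members selected by the study 1 of these calls remained. Of 43 axon guidance genes, Slit2 and Efnb2 (-1.47), a membrane-bound ligand of Eph receptors, were called lower, and 1 of them had been selected by the study. The first and second probe sets of Igf1 stayed called with any 1 tumor left out, and the third lost its call without WT3, KO2 or KO3 (adjusted p up to 0.0664). Each of Igf1r, Ntrk2 and Efnb2 lost its call without at least 1 of WT1, WT3, WT4, KO1, KO3, KO4 and MT1, at adjusted p up to 0.108.

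Few genes of the cell cycle were called. Of 36 mitosis and spindle genes, 33 had a negative difference, with a median of -0.37, but 2 were called lower, the kinetochore motor Cenpe (-1.24) and the phosphatase Cdc25b (-1.06), 1 of them selected by the study. The list mean was 8.20, 7.51, 7.94 and 7.58 in WT1 to WT4 and 8.18, 8.20, 8.41 and 8.07 in KO1 to KO4, so WT1 lay among the KO tumors. None of 40 DNA replication genes was called, with a median of -0.07 that became 0.06 without WT2. In their promoters, the CHR element of mitotic genes (TTTGAA or TTCGAA, either strand) was present in 23 of 29 mitosis genes and in 14.7% of all promoters. The calls of Cenpe and Cdc25b ended without 1 or more of WT1, WT2, WT3, WT4, KO1, KO2, KO3, MT1, MT2 and MT3 (adjusted p up to 0.112).

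The inhibitors of cyclin-dependent kinases were called in opposite directions. Cdkn1a (p21), the main p53 target of this kind, read 7.73, 8.82, 8.55 and 8.22 in WT1 to WT4 and 7.01, 6.62, 6.68 and 7.20 in KO1 to KO4. Its difference was 1.45 (SE 0.29, limma adjusted p = 0.0214), and its second probe set, at 1.07, did not pass. Cdkn2a, which encodes p16 and p19ARF, read 5.14, 5.51, 4.95 and 5.30 in WT1 to WT4 and 7.87, 7.49, 7.66 and 8.04 in KO1 to KO4. Every KO tumor was above every WT tumor, and the difference was -2.54 (SE 0.33, limma adjusted p = 0.00675). Its neighbor Cdkn2b (p15) read 5.42, 7.85, 6.84 and 5.84 in WT1 to WT4 and 8.71, 8.31, 8.55 and 9.19 in KO1 to KO4. WT2 approached the KO tumors, and the difference was -2.21 (SE 0.47, limma adjusted p = 0.0281). Cdkn1b, Cdkn1c, Cdkn2c, Cdkn2d, Rb1, Rbl1 and Rbl2 were not called, with differences from -0.78 to 0.52. The study had selected 2 members of the list, and without them 1 of the 3 calls remained. With any 1 tumor left out, Cdkn2a stayed called. Cdkn1a and Cdkn2b were each lost without 1 or more of WT1, WT3, KO1, KO2, KO3 and KO4 (adjusted p up to 0.0699).

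Among 35 known p53 targets, 7 (20%, against 2.67% over all genes) were called higher and 1 lower (Xpc), with a median of 0.24. The study had selected 6 members, and without them 2 calls higher and 1 lower remained. Ccng1, a cyclin induced by p53, was called at 3 probe sets, the clearest of which read 8.81, 9.54, 9.07 and 9.47 in WT1 to WT4 and 7.33, 7.55, 7.88 and 7.03 in KO1 to KO4, a difference of 1.77 (SE 0.21, limma adjusted p = 0.00497). The RNA-binding protein Zmat3 differed by 1.23, the stress sensor Sesn1 by 0.94 and the nuclease Aen by 0.94, and Pltp, Cdkn1a and Phlda3 were the other called ones. Mdm2, which degrades p53, was called at 1 probe set (0.80) and not at its brighter one (0.27). 27 targets remained without a call. The calls of Zmat3, Sesn1 and Aen held in every omission of 1 tumor. So did those of Ccng1 at 2 probe sets, while its brightest one, at 1.39, lost the call without WT1 or WT3 (adjusted p up to 0.0565).

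The 10-base half-site of p53, by its consensus on either strand, was found in 9 of 27 target promoters and in 3 of the 6 called ones with an entry (Ccng1, Aen and Cdkn1a). It was found in 7.13% of all promoters, 10.2% of those of genes called higher and 4.95% of those of genes called lower. The promoter of Ccng1 is shown with that match in capitals, which begins at base -185 from the start.
Ccng1 (chr11:40755287-40755536, minus strand): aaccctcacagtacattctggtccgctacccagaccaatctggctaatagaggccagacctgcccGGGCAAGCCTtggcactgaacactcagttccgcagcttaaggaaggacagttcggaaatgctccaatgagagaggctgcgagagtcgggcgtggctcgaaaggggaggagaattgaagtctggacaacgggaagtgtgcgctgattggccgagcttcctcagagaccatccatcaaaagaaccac

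Genes of mitochondrial metabolism were higher in WT tumors where they were called. Of 39 genes of the tricarboxylic acid cycle and of mitochondrial carriers, 6 (15.4%, against 2.67% over all genes) were called higher and none lower, and 30 had a positive difference. The study had selected 5 members, and without them 2 calls remained. Citrate synthase (Cs), the entry enzyme of the cycle, read 10.38, 9.81, 10.24 and 10.05 in WT1 to WT4 and 8.62, 9.46, 9.19 and 8.90 in KO1 to KO4, a difference of 1.08 (SE 0.18, limma adjusted p = 0.0148). Cisd1, an iron-sulfur protein of the outer mitochondrial membrane, read 10.00, 9.45, 10.03 and 9.50 in WT1 to WT4 and 8.55, 8.72, 8.80 and 8.39 in KO1 to KO4, a difference of 1.13 (SE 0.19, limma adjusted p = 0.0153). Esrra, a nuclear receptor that drives mitochondrial genes, was called at 0.56 and the phosphate carrier Slc25a3 at 0.62, and Sucla2 and Slc25a5 were the remaining called genes. In the respiratory chain 2 of 60 genes were called higher, Atp5b (0.87) and Ndufa1 (0.55), which is 3.33% and near the 2.67% of all genes. No omission of 1 tumor ended the calls of Cs and Cisd1. The calls of Esrra, Slc25a3, Atp5b and Ndufa1 ended without 1 or more of WT1, WT2, WT3, WT4, KO1, KO2, KO3, KO4, MT1, MT2, MT3 and MT4 (adjusted p up to 0.118).

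Genes of lipid storage, fatty acids and sphingolipids held 6 of 44 (13.6%, against 2.67%) called higher and 1 lower (Fabp5), with a median of 0.05, and without the 5 members selected by the study 2 higher and 1 lower remained. Besides Smpdl3a, Cd36 and G0s2, these were the phospholipase Plaat3 (1.28), Dgat2 (0.51), which makes triglyceride, and Lpl. None of 22 genes of cholesterol synthesis and uptake was called by its brightest probe set, and 1 was called higher at another. Lysosome genes held 5 of 44 (11.4%, against 2.67%) called higher and 1 lower (Gaa), and without 4 members selected by the study 2 higher and 1 lower remained. Creg1, a lysosomal glycoprotein, read 9.57, 9.15, 9.53 and 9.02 in WT1 to WT4 and 8.29, 8.12, 7.67 and 7.67 in KO1 to KO4, a difference of 1.38 (SE 0.22, limma adjusted p = 0.0126). The acid lipase Lipa was called at 0.70 and Gnptab, which tags enzymes for lysosomes, at 0.83. Smpdl3a and Creg1 stayed called with any 1 tumor left out. Cd36, G0s2, Plaat3, Dgat2, Lipa and Gnptab were each lost without 1 or more of WT1, WT2, WT3, KO1, KO2, KO3, KO4 and MT3 (adjusted p up to 0.0959).

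Enzymes of sialic acid moved in both directions. St3gal6 and Npl, which breaks down sialic acid, were called higher, and Gne, the first enzyme of its synthesis, lower. Npl read 6.61, 6.41, 6.58 and 6.46 in WT1 to WT4 and 5.35, 5.49, 5.50 and 5.92 in KO1 to KO4, a difference of 0.95 (SE 0.13, limma adjusted p = 0.00798). Gne differed by -1.23, and was the 1 call of the 3 that remained without the members selected by the study. In nucleotide and polyamine synthesis 2 genes were higher, Prps1 (1.26) and Azin1 (1.22), and 2 lower, Upp1 (-1.38) and Oaz2 (-1.05). Azin1 blocks antizymes, the family of ornithine decarboxylase inhibitors that Oaz2 belongs to. 3 genes of this last list had been selected by the study, and without them 1 call remained. With any 1 tumor left out, Npl, Azin1 and Upp1 stayed called. Each of Gne, Prps1 and Oaz2 lost its call without at least 1 of WT1, WT3, KO1, KO2, KO3, KO4, MT1, MT2, MT3 and MT4, at adjusted p up to 0.118.

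The list of glutathione genes and other antioxidant genes held 3 of 36 called higher and 1 lower, and without the 2 members selected by the study 2 higher and 1 lower remained. Msra, which repairs oxidized methionine, read 7.14, 7.55, 7.06 and 7.34 in WT1 to WT4 and 6.11, 6.21, 6.10 and 6.27 in KO1 to KO4, a difference of 1.10 (SE 0.12, limma adjusted p = 0.00328). Hmox1 and Txnrd2 (0.45) were also higher. The microsomal transferase Mgst1 read 9.59, 11.90, 10.47 and 10.54 in WT1 to WT4 and 12.43, 12.35, 12.82 and 12.08 in KO1 to KO4, a difference of -1.80 (SE 0.41, limma adjusted p = 0.0341). Genes of the unfolded protein response (29) and of hypoxia and glycolysis (26) were not called by their brightest probe sets. At another probe set 1 of the former was called higher and 1 of the latter lower. Of 37 genes of DNA damage response and repair, 1 (2.7%) was called higher, near the 2.67% of all genes. This was Xrcc5 (1.41), a subunit of the Ku complex that joins broken ends. The call of Msra held in every omission of 1 tumor. The calls of Hmox1, Txnrd2, Mgst1 and Xrcc5 ended without 1 or more of WT1, WT3, WT4, KO1, KO2, KO3, KO4, MT1, MT2 and MT3 (adjusted p up to 0.112).

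Where ribosomal protein genes were called, they were higher in WT tumors, by less than 1 unit. Of 42 measured, 34 had a positive difference, with a median of 0.24, and 6 (14.3%, against 2.67%) were called higher, none of them selected by the study. Rps9 read 12.89, 12.54, 12.67 and 12.76 in WT1 to WT4 and 12.06, 11.58, 12.07 and 11.59 in KO1 to KO4, a difference of 0.89 (SE 0.15, limma adjusted p = 0.0148). Rps26 (0.71), Rpl41 (0.81), Rps15 (0.73), Rpl10a and Rpl22 were the others. The list mean was 12.00, 11.67, 11.84 and 11.85 in WT1 to WT4 and 11.72, 11.54, 11.67 and 11.48 in KO1 to KO4, so WT2 overlapped KO1 and KO3. Many ribosomal proteins have near-identical pseudogene copies, and their probe sets may read more than 1 gene. Of 45 ribosome assembly genes 3 were called higher, Ltv1 (1.06), Pwp1 (1.06) and Imp4 (0.71), and without the 3 members selected by the study 1 call remained. By the brightest probe set, none of 56 splicing factors and 37 proteasome subunits was called. At another probe set 5 splicing factors were called lower and 1 higher, and 1 proteasome subunit higher. The study had selected 2 of the splicing factors. No omission of 1 tumor ended the calls of Rps9 and Ltv1. Rps26, Rpl41, Rps15, Pwp1 and Imp4 were each lost without 1 or more of WT1, WT3, WT4, KO1, KO2, KO3, KO4, MT1, MT2 and MT3 (adjusted p up to 0.104).

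Chromatin genes held 3 of 57 called lower and 1 higher, the 3 lower ones selected by the study. Phf21a, a reader of unmethylated histone H3, read 7.53, 7.01, 7.21 and 7.24 in WT1 to WT4 and 8.18, 8.34, 8.33 and 8.45 in KO1 to KO4, a difference of -1.08 (SE 0.12, limma adjusted p = 0.00328). Trrap, a scaffold of histone acetyltransferases, read 8.16, 7.65, 8.41 and 8.23 in WT1 to WT4 and 9.32, 9.32, 9.15 and 9.43 in KO1 to KO4, a difference of -1.19 (SE 0.17, limma adjusted p = 0.00907). The methyltransferase Kmt2a differed by -1.30, and the remodeler subunit Smarcb1 by 0.67. Of 28 Bcl2 family and caspase genes, the death receptor adaptor Tradd (0.71) was called higher, and the survival gene Bcl2l1 (-0.88) and Bcl2l13 (-0.83) lower, and without the 1 member selected by the study 1 call remained in each direction. Phf21a, Trrap and Kmt2a stayed called with any 1 tumor left out. Each of Smarcb1, Tradd, Bcl2l1 and Bcl2l13 lost its call without at least 1 of WT1, WT3, WT4, KO1, KO2, KO3, KO4 and MT1, at adjusted p up to 0.107.

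Markers of other cell types were called in some lists. Macrophage markers had a median of 0.61, 17 of 18 were positive, and 4 (22.2%, against 2.67% over all genes) were called higher in WT, of which the study had selected 2. Their mean was 8.25, 8.30, 8.27 and 8.56 in WT1 to WT4 and 7.50, 7.85, 7.61 and 7.87 in KO1 to KO4, without overlap. Tyrobp, a signaling adaptor of myeloid cells, read 9.89, 9.46, 9.58 and 9.30 in WT1 to WT4 and 8.19, 8.62, 8.34 and 8.64 in KO1 to KO4, a difference of 1.11 (SE 0.22, limma adjusted p = 0.0217). Cd84 differed by 1.02 and Cd68 by 0.91, and the fourth was Gpnmb. Gpnmb and Cd68 are counted among the lysosome genes as well. With any 1 tumor left out, Cd84 and Gpnmb stayed called. The calls of Tyrobp and Cd68 ended without 1 or more of WT1, WT2, WT3, WT4, KO1, KO2, KO3, MT1, MT3 and MT4 (adjusted p up to 0.106).

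Endothelial markers had a median of 0.28, and 3 of 16 were called higher, none selected by the study: Pecam1 (1.05), Emcn (0.72) and Vwf (0.74). Their mean lay between 6.49 and 6.65 in WT and between 6.13 and 6.50 in KO tumors. Vwf was near the low end of the scale, with means of 5.41 in WT and 4.67 in KO tumors. Pecam1, Emcn and Vwf were each lost without 1 or more of WT1, WT2, WT3, WT4, KO1, KO2, KO3, KO4, MT1, MT2, MT3 and MT4 (adjusted p up to 0.117). B and plasma cell markers were raised in 1 tumor, with a mean of 9.05 in WT1, between 6.16 and 6.70 in the other WT tumors and between 6.23 and 6.43 in KO tumors, and none of 11 was called. MHC class II genes followed the same tumor, at 9.54 in WT1 and between 7.07 and 8.07 in the other 7, and 1 of 11 was called higher, H2-Ea (0.66). Interferon response genes were highest in KO2, at 8.68, and between 6.37 and 7.55 in the other tumors. Their median of -0.70 came with no call among 27 genes, and was -0.31 without KO2.

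Fibroblast markers were called for 1 gene of 13 (Pi16, 0.89) and mast cell markers for 1 of 14 (Cma1, 0.62), both higher. T and NK cell, adipocyte, skeletal muscle, red blood cell and MHC class I genes had no call by the brightest probe set. Their medians were 0.35, 0.15, 0.17, 0.19 and 0.30. At another probe set 1 T and NK cell gene, 1 skeletal muscle gene and 2 MHC class I genes were called higher. The T and NK cell median was 0.13 without WT1, the adipocyte median 0.09 without WT3 and the red blood cell median 0.11 without KO1, and the MHC class I median lay between 0.05 without KO3 and 0.56 without KO2. Schwann cell and nerve markers held 3 of 13 called lower, Mia, Ncam1 (-1.29) and Uchl1 (-0.59), while the median was -0.01, and without the 2 members selected by the study 1 call remained. Mbp and Sox10, also markers of Schwann cells, were not among the 3. The part of cell type makeup in the differences of other genes was not tested.

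**Figure D4:**
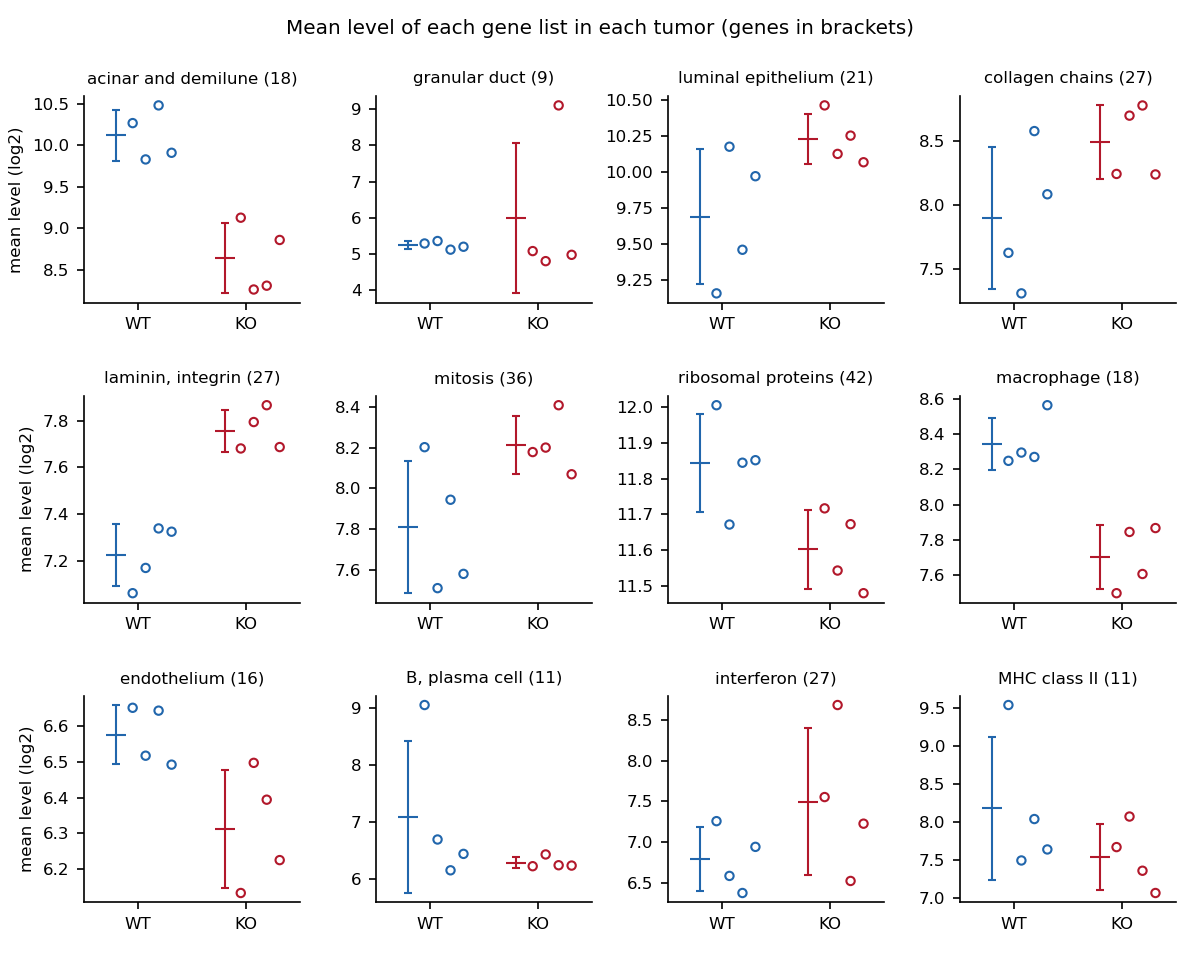
Mean level (log2, y axis) of 12 gene lists in each WT (blue) and KO (red) tumor, 1 circle per tumor in the order WT1 to WT4 and KO1 to KO4 from left to right, with the mean and SD of 4 tumors beside them. Among these 12 lists, macrophage, acinar and laminin and integrin genes separate the genotypes, as do several lists that are not drawn. Granular duct genes are high in KO3 (9.10), B and plasma cell genes in WT1 (9.05) and interferon genes in KO2 (8.68).

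Genes normally active in other tissues were called 1 at a time. Of 26 plasma protein genes 2 were called lower (Fgg and Apoa4) and 1 higher, and without the 1 member selected by the study 1 call remained in each direction. The fibrinogen chains, which liver cells make together, had different patterns here. Fgb was called in the opposite direction to Fgg, at 0.86, but near the low end of the scale. It lay between 5.15 and 6.25 in WT and between 4.66 and 5.13 in KO tumors, with WT4 next to KO4. Fga, taken up after its values were seen, lay between 4.04 and 4.22 in all 8 tumors with a difference of -0.06. Of 34 genes of synaptic vesicles and secretory granules, Stx1a (-1.58) and Scamp5 (-0.99) were called lower, and Stx18 (0.52), Chga (0.44) and Syt1 (0.38) higher, and without the 3 members selected by the study 2 of the higher calls remained. Chga and Syt1 were near the low end of the scale, with means of 5.05 and 4.89 in WT and 4.61 and 4.51 in KO tumors. Stx1a, a membrane fusion protein, read 5.71, 5.99, 5.88 and 6.62 in WT1 to WT4 and 7.38, 7.84, 7.79 and 7.52 in KO1 to KO4. Of 22 imprinted genes, Gnas (-0.74), a G protein subunit, was lower and Phlda2 (0.80), a growth restrictor of placenta, higher, both selected by the study. No omission of 1 tumor ended the calls of Stx1a, Scamp5, Gnas and Phlda2. Each of Fgb, Stx18, Chga and Syt1 lost its call without at least 1 of WT1, WT2, WT3, WT4, KO1, KO2, KO3, KO4, MT1, MT2, MT3 and MT4, at adjusted p up to 0.114.

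Called genes were unevenly spread over the chromosomes. Chromosome 10 held 61 genes called higher and 1 lower among 560 measured, which is 10.9% against 2.67% for all genes. It held 18.5% of the genes called higher and 4.53% of the genes measured, and without it 2.27% of the other 11797 genes were called higher. The median difference over its genes was 0.22, and 77.1% of them were positive. Averaged over the chromosome and set against the mean of the 8 tumors, its genes stood at 0.14, 0.07, 0.14 and 0.16 in WT1 to WT4 and at -0.23, -0.09, -0.08 and -0.11 in KO1 to KO4. All WT tumors were thus above all KO tumors, by small amounts per gene. The median lay between 0.19 and 0.24 with any 1 of the 8 tumors left out, and was 0.27 with arrays centered and 0.22 after cyclic loess. Copy number was not measured on these arrays, and its part was not tested.

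Several of the lists above draw calls from chromosome 10. Of 6 called ribosomal protein genes, 3 lie there (Rps26, Rpl41 and Rps15), and of 6 of the tricarboxylic acid cycle and carrier list, 3 (Cs, Slc25a3 and Cisd1). So do Ltv1 and Pwp1 among the 3 ribosome assembly genes, Smpdl3a, Igf1, Sesn1, Atp5b, Gnptab, Smarcb1 and Syt1. Without the chromosome 10 genes, the median remained 0.24 for ribosomal proteins and was 0.16 for the tricarboxylic acid cycle list. The clearest call of the chromosome after Smpdl3a was Polr2e, a subunit shared by the RNA polymerases, which read 9.95, 9.71, 9.85 and 10.00 in WT1 to WT4 and 8.65, 8.90, 9.02 and 8.74 in KO1 to KO4. The 4 WT tumors were nearly equal, and the difference was 1.05 (SE 0.11, limma adjusted p = 0.00328). The stretch of 25 neighboring measured genes from Rpf2 to Prep held 6 called higher, among them Sesn1, Ddo (1.31), which oxidizes D-aspartate, and Fig4 (0.80), a lipid phosphatase, and 23 of its 25 genes were positive. The stretch from Pawr to Lyz1 held 4, Nap1l1 (1.18), Cct2 (0.84), Lyz2 (1.38) and Syt1. Polr2e stayed called with any 1 tumor left out. The calls of Ddo, Fig4, Nap1l1, Cct2 and Lyz2 ended without 1 or more of WT1, WT2, WT3, WT4, KO1, KO2, KO3, KO4, MT1, MT2 and MT3 (adjusted p up to 0.102).

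On chromosomes 5, 3, 9, 11 and 2 more genes were called lower than higher. Chromosome 6 was nearly even, with 14 lower and 13 higher. Chromosome 5 held 45 genes called lower among 771 (5.84% against 1.89% for all genes) and 11 higher, with a median of -0.09. Its called genes include Trip6, Slit2, Trrap, Stx1a and Kctd10 (-1.30). Chromosomes 3, 9, 11 and 2 held 24, 24, 36 and 27 genes called lower, 3.81%, 3.51%, 3.46% and 2.8% of those measured. On chromosome 9, the choline transporter Slc44a2 read 8.12, 7.58, 6.82 and 8.36 in WT1 to WT4 and 9.95, 9.42, 9.62 and 10.18 in KO1 to KO4, a difference of -2.07 (SE 0.33, limma adjusted p = 0.0126). The KO tumors were not alike there. On chromosome 11 the mean deviation was 0.32 in KO2, 0.20 in KO3 and -0.22 in KO4, and on chromosome 2 it was 0.28, 0.19 and -0.19. A stretch of 25 genes on chromosome 11 from Flot2 to Nlk had the lowest median of all 11877 stretches, -0.54, with 0.66 in KO2, 0.44 in KO3, 0.16 in KO1 and -0.24 in KO4. Flot2, a protein of membrane rafts, read 6.28, 5.94, 6.27 and 5.89 in WT1 to WT4 and 7.81, 9.15, 8.82 and 8.28 in KO1 to KO4, a difference of -2.42 (SE 0.30, limma adjusted p = 0.00675). Chromosome 14 held 23 genes called higher among 437 (5.26%), led by Ldb3 and Msra. With any 1 tumor left out, Kctd10, Slc44a2, Flot2, Trip6 and Msra stayed called.

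**Figure D5:**
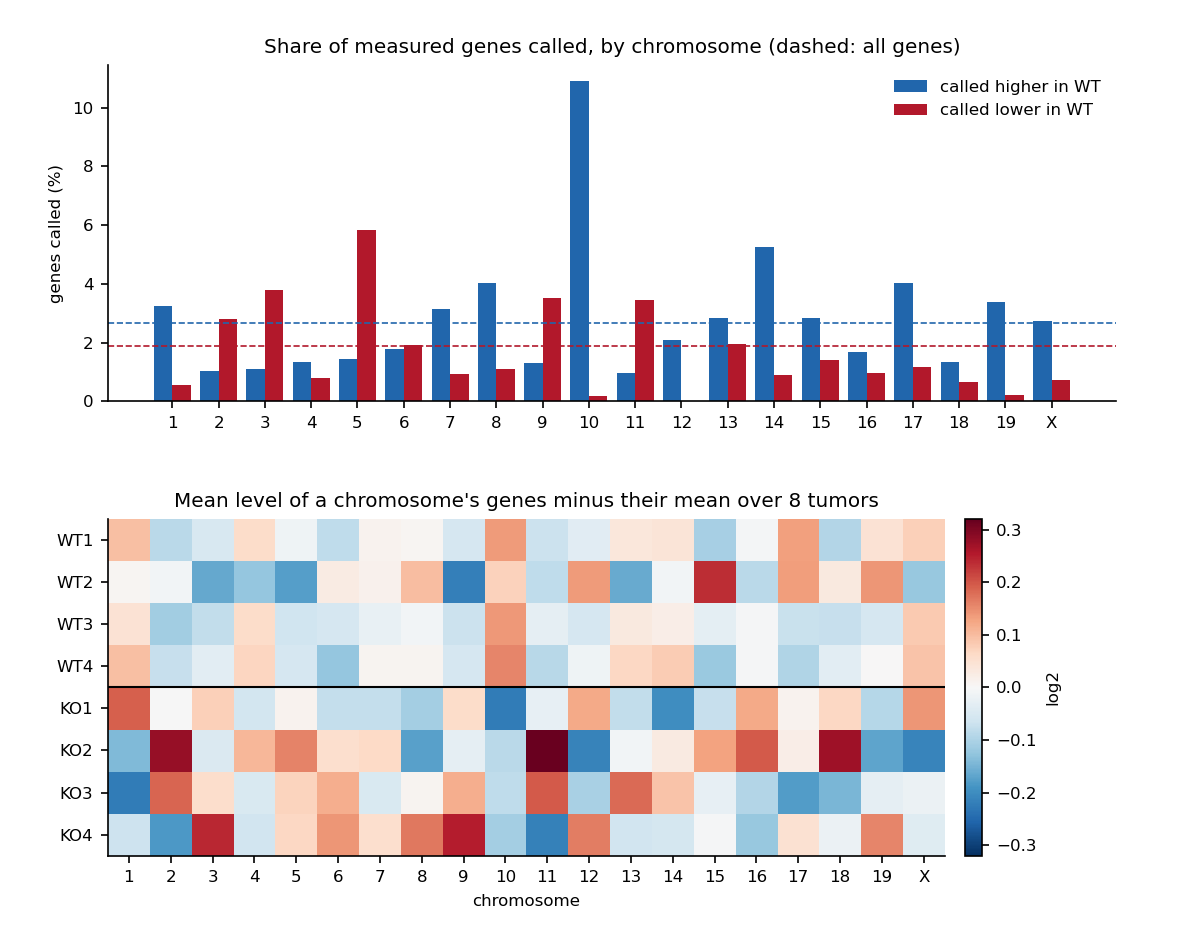
The upper panel gives the percentage of measured genes of each chromosome (x axis) called higher (blue) or lower (red) in WT tumors, with dashed lines at the shares over all genes, 2.67% and 1.89%. The lower panel gives the mean level of each chromosome's genes in each tumor minus their mean over the 8 tumors (log2, color); chromosome 10 is above 0 in all 4 WT and below 0 in all 4 KO tumors.

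The base composition of promoters was described without a test. The median share of G and C was 59.3% over 9882 promoters, 57.2% over 256 of genes called higher and 63.5% over 202 of genes called lower. Other motifs were counted without a test. The CCAAT box (CCAAT) was found in 38.1% of all promoters, 38.7% of those called higher and 35.6% of those called lower. The E2F core (TTCCCGC or TTGGCGC) was found in 11%, 8.59% and 11.9%, the E-box core (CACGTG) in 9.33%, 8.2% and 8.91%, and the CHR element in 14.7%, 12.9% and 9.41%, each counted on either strand.

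Tumors of the same genotype differed from each other by similar amounts in both groups. The median SD over 4 tumors was 0.217 in WT and 0.248 in KO, and 55% of the probe sets had the larger SD in KO tumors. Over the called probe sets the order was the reverse, 0.247 in WT and 0.217 in KO.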

How the data were processed

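The deposited table holds log2 expression values that, by the paper's methods, the authors made with RMA (correcting the background, giving arrays 1 common distribution and summarizing each probe set) in BRB-ArrayTools. The submitters' processing notes list MAS5 beside RMA, with no version of either, and leave their roles unstated. Versions of the genome build and of the array annotation are not given in the sources used here. Raw intensities were not analysed here.

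Of 22690 probe sets, 64 controls were left out. GEO's platform annotation names 1 gene for 20380 probe sets, several for 691 and none for 1555, of which Trp53 and Soat1 were named through the study's table. Symbols, chromosomes and promoters came from RefSeq tables of GRCm38.p6, which were not used to place the probes. For counts by gene, the probe set with the highest mean over the 8 tumors stood for the gene. No pair of arrays held identical values.

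WT minus KO was tested 2-sided from a fit of 3 group means to the 12 tumors, which leaves 9 residual degrees of freedom, by lmFit and eBayes of limma 3.58.1 (R 4.3.3). Other values were computed in Python 3.11.15 with numpy 2.4.6, pandas 2.3.3 and scipy 1.17.1, and figures were drawn with matplotlib 3.10.9. Lists, chromosomes and motifs were described without a test. Motifs were searched in the 250 bases before and 50 bases after the start.

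The named genes are Trp53, the 15 highest and 15 lowest called genes with 1 symbol and no overlap, up to 4 called members of each list by p, the CDK inhibitors, up to 4 called genes of a chromosome or run of 25 neighbors, and stated markers. Further called members of a list are named without values. The genes and lists were chosen with earlier results of these data known. Same-numbered WT and KO tumors correlated at 0.0023, 0.0528, 0.1286 and 0.021, and the numbers were therefore not used to pair tumors. In simulated data of WT against KO over 22626 probe sets, limma recovered 56 of 100 probe sets shifted by 1 and 87 of 100 shifted by 2, with 7 false calls. The simulated spread was independent between probe sets. It therefore cannot show how many false calls arise from differences that many probe sets of a tumor share, such as those in RNA controls.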

Additional observations from a re-analysis of the deposited data

Results flagged for a closer look

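In 472 groups of 4 tumors, the tumor farthest from the others was examined, and in 22 its gap to the nearest one took up more of the group's range than the limit of Dixon's test allows. Chance alone sets apart about 1 in 20 groups. None of these was explained or tested further.

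Among WT tumors, Ldb3 (first probe set) was low in WT2, at 4.78, against 6.98 to 7.10 in the others. Hmox1 was high in WT2, at 9.75, against 8.70 to 8.77. Upp1 was high in WT4 at 7.0, Rbl2 in WT1 at 8.59, Krt14 in WT2 at 6.25 and Trp63 in WT3 at 5.85. Egf was low in WT2 at 6.35 and Dcpp3 in WT4 at 10.59, where the other WT tumors lay between 13.52 and 13.80. The macrophage marker mean was high in WT4, at 8.56, and the distance between 3′ and 5′ actin probe sets was low in WT4, at 0.25.

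Among KO tumors, Apoa4 was high in KO1, at 12.92, against 9.36 to 9.71, as were Imp4 at 8.01 and the 18S level at 8.03. In KO4, Etv4 was low at 8.58, Txnrd2 at 6.41 and Pecam1 at 4.80, while Phlda2 was high at 6.05 and Rxrb at 8.86. Cdkn2d was high in KO3 at 8.31 and Mpzl2 low in KO2 at 8.60. The granular duct mean was high in KO3, at 9.10, against 4.80 to 5.08, and the B and plasma cell mean was high in KO2, at 6.43.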

How the results depend on the processing

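The count of 1035 called probe sets (597 higher and 438 lower in WT) depended on the processing. With 1 tumor left out it lay between 196 without WT3 and 1360 without WT4, with 109 to 869 higher and 87 to 519 lower. Fits to the 8 tumors called 374 (170 and 204), a filter on dim probe sets 612 (259 and 353) and 1 probe set per gene 554 (320 and 234). Array weights called 3280 (1792 and 1488) and the 18S covariate 11 (7 and 4). An adjusted p under 0.10 gave 2541 (1461 and 1080), and a difference of at least 1 gave 346 (137 and 209). The methods' t-test with Benjamini-Hochberg adjustment called 10 at 5% (4 and 6) and 366 at 10% (207 and 159), and SAM at 5% called 2069 (1283 and 786). Smaller fits hold fewer samples or probe sets by construction, and the cause was not otherwise tested. Centering of arrays (1242), cyclic loess (954), a trend with robust moderation (1047) and the hybridization control level as a covariate (1400) stayed within 1.5 times. The replicate block, which takes the tumor numbers as pairs although they did not pair the tumors, called 1019 (531 and 488).

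Of 120 called genes in the lists, 47 stayed called without WT3, 57 without WT1, 68 with the 8 tumors, 99 with the replicate block and 7 with the 18S covariate. None of 156 named probe sets with a call changed sign under any alternative, while 9 of 27 without a call did (Acta2, Aqp5, Cdkn2c, Cdkn2d, Cnn1, Egf, Krt7, Rb1 and Rbl1), and of their recomputed results 2860 stayed on the same side of the threshold while 786 calls were lost. List medians near 0 changed sign in some fits, and beyond those the granular duct median went from -0.54 to 0.29 without KO3.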
